A study of Mus musculus with 4 samples.

Results

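The cells described here were Cd209a Mgl2 type 2 dendritic cells from the ascites of mice with ovarian tumors, and 534 of them were found among 49491 barcodes kept from 4 single-cell libraries. They were chosen by their UMIs (unique molecular identifiers, the counted transcripts of the assay). A kept barcode had 800 to 4800 genes and at most 15% mitochondrial UMIs. A member had at least 2 UMIs of Cd209a, Cd209c and Flt3 together, at least 1 of them from Cd209a or Cd209c, fewer than 3 of Ccr7, Fscn1 and Ccl22 together, and none of Clec9a, Xcr1, C1qa, C1qb, Cd79a or Cd3e. These 12 genes defined the members, so their levels are given as a description and were not tested.

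All samples were ascites cells of female FVB mice, collected 6 weeks after intraperitoneal injection of Br-Luc cells, a mouse ovarian tumor line that lacks p53 and Brca1 and carries myc and myristoylated Akt. Mice received an LNA-modified siRNA (a small interfering RNA with locked nucleic acids) with the carrier jetPEI, either the control siRNA (siCont, 2 libraries) or the siRNA against FXR1 (siFXR1-LNA, 2 libraries). Tumor and carrier were therefore common to both groups, no library came from an untreated or tumor-free mouse, and each library held the pooled ascites of 3 mice after lysis of red cells. The study left out 1 siFXR1-LNA library that the labels do not name, so all 4 were used here, and p-values measure the spread between these libraries.

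Type 2 conventional dendritic cells take up antigen, load it on MHC class II molecules and present it to CD4 T cells. They grow under Flt3 ligand, for which Flt3 is the receptor. Cd209a is a mouse relative of the human lectin DC-SIGN, and Mgl2 and Clec10a are galactose-type lectins that bind glycans with terminal galactose or N-acetylgalactosamine. Cd209a belongs to a cluster of related genes, and Mgl2 and Clec10a are close paralogs, so reads of such pairs can be split between them and their separate levels are less certain than those of single-copy genes.

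The kept barcodes numbered 13583 and 7702 in siCont replicates 1 and 2, while siFXR1-LNA replicates 1 and 2 kept 16317 and 11889. Of these, 1698 had a UMI of Cd209a or Cd209c and 1359 reached the sum of 2 with Flt3. The exclusion of C1qa and C1qb touched 683 of the 1359, Cd79a touched 144, Cd3e 121, Clec9a and Xcr1 53, and the Ccr7, Fscn1 and Ccl22 limit 30, with some barcodes met by more than 1 exclusion. Members numbered 236, 238, 22 and 38 in the same order. No member barcode was a member in another library, although pairs of libraries shared 598 to 2882 of their deposited barcodes, and up to 9 member barcodes of a pair also stood among the kept barcodes of the other library.

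Depth differed between libraries. The median member had 4611 UMIs in siCont replicate 1, 8195 in siCont replicate 2, 4680 in siFXR1-LNA replicate 1 and 6188 in siFXR1-LNA replicate 2. Summed over members, the libraries gave 1129933, 1947883, 100991 and 258424 UMIs. A single UMI thus equalled 9.90 CPM (UMIs scaled to a total of 1000000 over the members of a library) in siFXR1-LNA replicate 1 and 3.87 CPM in siFXR1-LNA replicate 2, and a gene with no UMI there could have had up to 29.7 and 11.6 CPM by counting error (3 counts). Hemoglobin genes, which dendritic cells do not express, took a mean of 8.22% and 7.18% of the UMIs of a member under the siCont label and 4.00% and 1.65% under the siFXR1-LNA label. RNA from outside the cell was therefore counted in the members, and less of it came from red cells in the libraries labelled siFXR1-LNA.

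Fxr1, the target of the siRNA, was read first as a check of the labels. In the members it had 64.6 and 40.6 CPM under the siCont label and 49.5 and 42.6 CPM under the siFXR1-LNA label. The groups overlapped, and the fitted difference was −0.31 ± 0.42 on the log2 scale (SE, n = 2 against 2, adjusted p = 0.816 by edgeR). In the other kept barcodes Fxr1 had 66.8 and 56.8 CPM under the siCont label and 96.7 and 75.5 CPM under the siFXR1-LNA label. The difference in the members did not pass the test, and the other barcodes had no lower level under the siFXR1-LNA label, so the libraries are called by their labels throughout. Its relatives Fmr1 (adjusted p = 0.768) and Fxr2 (adjusted p = 0.237) did not pass the test either.

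Members made up 1.74% (95% exact binomial interval 1.52 to 1.97) and 3.09% (2.72 to 3.50) of the kept barcodes in siCont replicates 1 and 2. In siFXR1-LNA replicates 1 and 2 they made up 0.135% (0.0845 to 0.204) and 0.320% (0.226 to 0.438), where the intervals cover counting error only. The mean share was 2.41% ± 0.957 under the siCont label and 0.227% ± 0.131 under the siFXR1-LNA label (SD, n = 2 each), a 10.6-fold difference. Both siFXR1-LNA libraries lay below both siCont libraries, with p = 0.333 in a two-sided exact permutation test, the smallest p that 2 against 2 can give. The share is relative to all barcodes of a library and says nothing about the number of cells in the ascites.

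**Figure D1:**
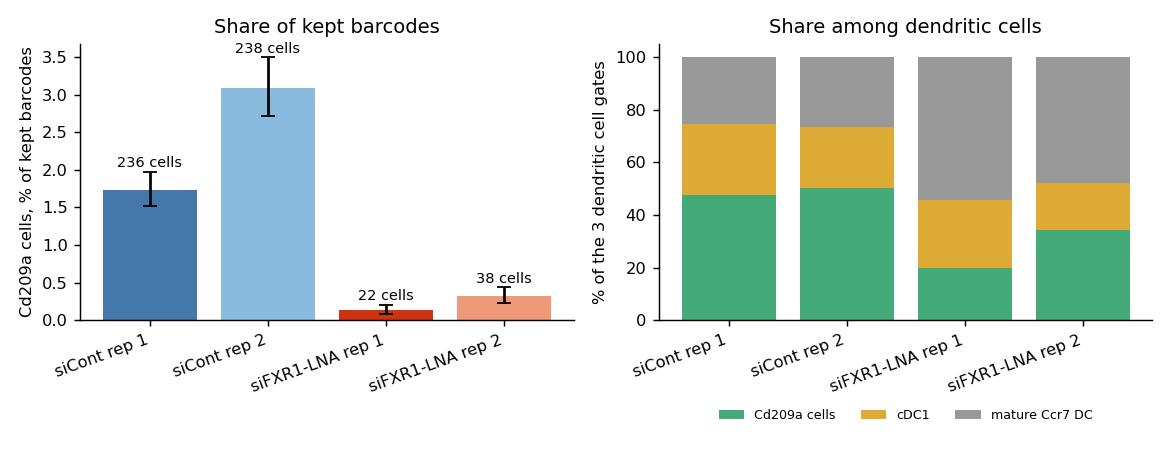
Left, members as a percentage of the kept barcodes of each library, with 95% exact binomial intervals as error bars and the number of members above each bar. Right, the 3 dendritic cell gates of each library as percentages of their sum. Members were 1.74% and 3.09% of kept barcodes under the siCont label and 0.135% and 0.320% under the siFXR1-LNA label.

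Other dendritic cells were also rarer under the siFXR1-LNA label, so the members were set beside them. The cDC1 gate (at least 2 UMIs of Clec9a and Xcr1, the markers of cross-presenting type 1 dendritic cells) held 133, 110, 29 and 20 barcodes. The mature gate (at least 3 UMIs of Ccr7, Fscn1 and Ccl22, genes of dendritic cells on the way to lymph nodes) held 126, 127, 61 and 53. Within the sum of the 3 gates the members were 47.7% and 50.1% under the siCont label and 19.6% and 34.2% under the siFXR1-LNA label. That difference of 1.81-fold was in the same direction as the share of all barcodes, again with an exact p of 0.333. Relative to barcodes with a UMI of the leukocyte gene Ptprc the difference was 7.51-fold.

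The difference kept its direction in every setting tried. Among barcodes under 5% hemoglobin UMIs, a limit set after the data were seen, the members were 10.7-fold more frequent under the siCont label. With every barcode thinned to 1500 UMIs before the gate the difference was 17.9-fold, and without the exclusions of the rule it was 8.97-fold. Members right at the limit of 2 UMIs numbered 91, and 79 barcodes with a single UMI of Cd209a or Cd209c met every other condition. Members at the limit were 43 of 236 and 28 of 238 under the siCont label and 11 of 22 and 9 of 38 under the siFXR1-LNA label. In siFXR1-LNA replicate 1 the barcodes with 1 UMI had 1884 CPM of the MHC class II gene H2-Aa, against 8472 CPM in members at the limit and 10069 CPM in members above it. In siCont replicate 1 the same values were 8024, 9452 and 11391 CPM. In siCont replicate 2 they were 8646, 8618 and 12714 CPM and in siFXR1-LNA replicate 2 they were 7710, 7028 and 12584 CPM. For H2-Aa, barcodes right outside the rule thus lay far below the members in siFXR1-LNA replicate 1 alone of the 4 libraries. Clec10a was lower there than in members at the limit in all 4 libraries (187, 121, 35.8 and 391 CPM against 386, 342, 229 and 562 CPM). Mgl2 was higher outside than at the limit in all but siFXR1-LNA replicate 1.

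Cd209a reached 1444 and 1410 CPM under the siCont label and 426 and 638 CPM under the siFXR1-LNA label. Cd209c, a relative in the same lectin family, had 447, 400, 267 and 170 CPM in that order. Flt3 had 88.5, 106, 119 and 89.0 CPM. These genes were part of the rule, and the lower Cd209a level of the siFXR1-LNA libraries goes with their larger part of members at the limit. Among all 534 members, 515 had a UMI of Cd209a, 327 of Cd209c and 206 of Flt3.

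The lectins that the rule did not use set the members apart in all 4 libraries. Mgl2 had 974, 933, 317 and 464 CPM in the members, against 74.8, 83.4, 6.14 and 19.8 CPM in all other kept barcodes. Clec10a had 487, 494, 248 and 642 CPM in the members, against 59.2, 54.3, 14.2 and 24.0 CPM in the others. A UMI of both was seen in 220 members, of Mgl2 alone in 108, of Clec10a alone in 142 and of neither in 64. With UMIs drawn at random down to 1500 a cell (2 and 1 shallower members of siCont replicates 1 and 2 dropped), Mgl2 was detected in 49.6%, 46.8%, 31.8% and 36.8% of members. In B cells (at least 2 UMIs of Cd79a), which lack this lectin, it was detected in 0.900%, 0.786%, 0.357% and 0% of cells after the same thinning. Without thinning the shares were 63.6%, 62.2%, 50.0% and 50.0% of members and 1.46%, 1.23%, 0.345% and 0% of B cells, whose median depths were 2649, 3186, 2326 and 2463 UMIs.

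Beside the lectins, the genes with the highest ratio of members to other kept barcodes, by the lowest of the 4 libraries, were Adam23, a membrane protein of the disintegrin family, and Ppp1r14a, an inhibitor of myosin phosphatase. Adam23 had 565, 555, 604 and 956 CPM in the members and 47.3, 58.8, 27.0 and 39.5 CPM in the others. Ffar2, a receptor for short-chain fatty acids, and the lectin-like receptors Klrd1 and Klrb1b followed. Further down came several genes of MHC class II loading. H2-Oa, which tunes peptide exchange, had 345, 361, 287 and 379 CPM against 55.7, 69.4, 8.45 and 17.9 CPM, and Ciita, the master activator of class II genes, had 327, 376, 248 and 364 CPM against 74.1, 82.4, 9.41 and 23.8 CPM. The aspartic protease Napsa had 1243, 1322, 753 and 1316 CPM and the integrin Itgax (CD11c) 171, 199, 139 and 139 CPM. The members were chosen from the same cells, so these ratios are descriptions.

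**Figure D2:**
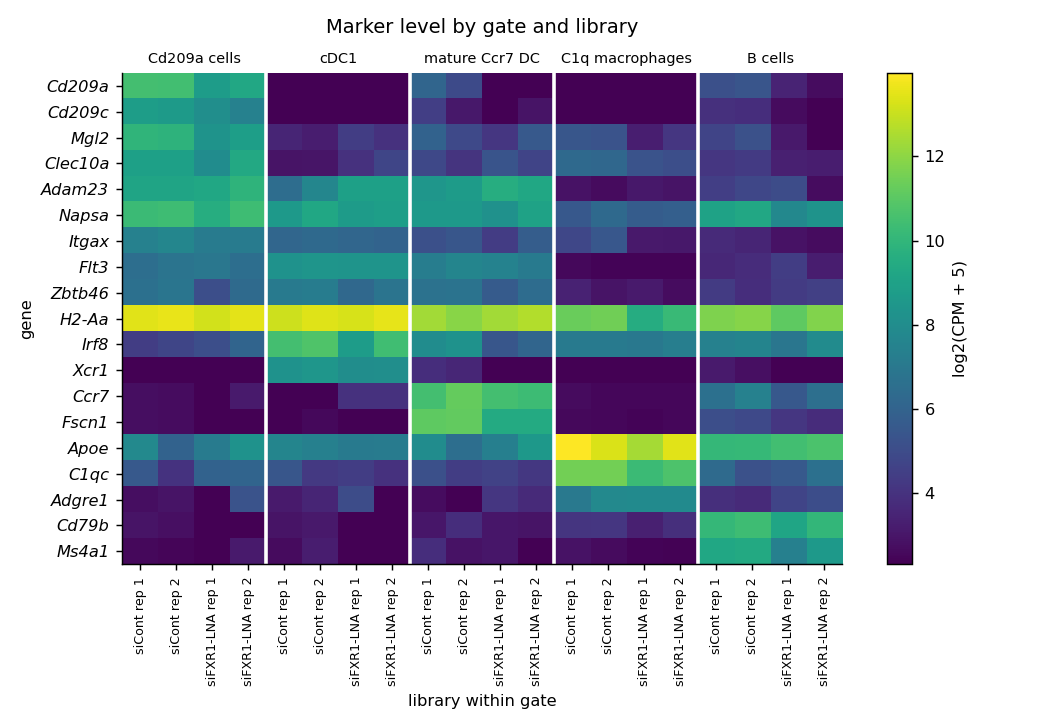
Level of 19 genes as log2(CPM + 5), by color, in the summed cells of 5 gates (columns grouped by gate, 4 libraries each). Mgl2 and Clec10a are brightest in the members, Adam23 is bright in all dendritic cell gates, Napsa there and in B cells, H2-Aa in members and cDC1, and Apoe in the C1q macrophages.

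Transcription factors of the lineage gave a mixed picture for the label. Zbtb46, a factor of conventional dendritic cells that macrophages lack, had 93.8, 112, 29.7 and 77.4 CPM in the members and at most 5.99 CPM in C1q macrophages (at least 5 UMIs of C1qa and C1qb). Irf4, the factor tied to type 2 cells, had 54.9 and 56.0 CPM under the siCont label, 0 CPM in siFXR1-LNA replicate 1 and 19.4 CPM in siFXR1-LNA replicate 2, with adjusted p = 0.108. Irf8, the factor of type 1 cells, had 16.8, 22.1, 29.7 and 61.9 CPM in the members against 1454, 1748, 436 and 1342 CPM in cDC1. The label thus fitted the genes of type 2 cells in the siCont libraries. In siFXR1-LNA replicate 1 no UMI of Irf4 was found, and the name rests there on the lectins. Zbtb46 was detected in 13.6% of the 22 members of that library without thinning and in 0% after thinning, so it adds little. The class II gene H2-Aa was detected without thinning in 95.5% of these members. The shares in cDC1 and B cells of that library were 100% and 92.8%, so its detection does not set the members apart.

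Markers of other cell types were low in the members for some lists and not for others. The 12 macrophage genes summed to 635, 530, 555 and 875 CPM in the members and to 30440, 23520, 11751 and 19814 CPM in C1q macrophages. Their most abundant gene in the members was the lysosomal Cd68 (246, 270, 178 and 232 CPM) in all but siFXR1-LNA replicate 2, where Apoe had 298 CPM. Of the 12, 2 were at 0 in all libraries, and both were genes that the rule excludes. Adgre1 (F4/80), a defining macrophage gene, had 1.77, 2.57, 0 and 34.8 CPM. Fcgr1 (CD64), an Fc receptor of macrophages and monocyte-derived cells, was detected at 1500 UMIs in 10.3%, 14.3%, 9.09% and 5.26% of members and in 25.2%, 30.5%, 14.4% and 18.5% of C1q macrophages. In B cells the shares were 0.655%, 0.286%, 1.43% and 1.37%. Without thinning Fcgr1 was detected in 25.4%, 44.5%, 9.09% and 26.3% of members and in 1.92%, 0.958%, 1.72% and 2.68% of B cells. The 10 monocyte genes summed to 1035, 1480, 683 and 1103 CPM in the members, beside 1138, 2222, 3059 and 3164 CPM in C1q macrophages and 1001, 1841, 2136 and 3201 CPM in all other kept barcodes. Their most abundant gene in the members was Plac8 in the siCont libraries and F13a1 in siFXR1-LNA replicate 2 (both at 218 CPM in siFXR1-LNA replicate 1), and the sum was no lower than in the other barcodes of siCont replicate 1. Whether some members derived from monocytes was not tested.

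The B cell genes summed to 60.2, 70.3, 59.4 and 92.9 CPM, with Ighm as the most abundant, and the T cell genes to 41.6, 46.2, 9.90 and 58.0 CPM. Of the 10 NK cell genes, 7 were at 0 in every library and nearly the whole sum was the myeloid adaptor Tyrobp, so Klrd1 came without Ncr1 or Eomes. The neutrophil genes summed to 25.7, 445, 842 and 503 CPM in the members and to 111, 1085, 3855 and 3543 CPM in B cells, which do not express them. The members therefore held neutrophil transcripts at a lower level than B cells of the same library did.

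The comparison of the labels within the members was made on the summed UMIs of each library. Interferon-stimulated genes were lower under the siFXR1-LNA label, together with some genes of cell division and the markers Mgl2 and Cst3. Some genes of the hypoxia and iron lists and some of acute inflammation were higher. Of 7297 genes tested with edgeR's quasi-likelihood test (Benjamini-Hochberg adjustment, threshold 0.05), 75 were higher (1.03% of those tested) and 86 were lower (1.18%). The median log2 difference of all genes was −0.03.

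Calls were lost when a siCont library was left out, where the spread then comes from the siFXR1-LNA pair and the lone siCont library is assumed to vary like it. Without siCont replicate 1, and likewise without siCont replicate 2, 0 genes were called in either direction by edgeR, with 356 and 229 at an unadjusted p under 0.05. The fitted log2 fold of Saa3 was 7.01 with all libraries and 7.37 and 6.63 in these fits, and that of Lcn2 was 5.82, then 5.68 and 6.12. The log2 fold of Cxcl2, which had no UMI in siCont replicate 1, moved from 7.44 to 10.66 without siCont replicate 2. Some of the 75 and 86 calls were also lost when a siFXR1-LNA library was left out, more of them without replicate 2 than without replicate 1. The log2 fold of Saa3 was 7.40 without siFXR1-LNA replicate 1 and 6.39 without siFXR1-LNA replicate 2. That of Lcn2 was 5.27 and 6.30 in the same order. When members with a UMI of C1qc, Adgre1, Fcgr1 or Ly6c2 were left out, 36 were higher and 40 lower, 26 and 21 of them were among the 75 and 86, and 1 of the 161 changed the sign of its fold. DESeq2 called 60 and 57, of which 55 and 55 were among them.

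**Figure D3:**
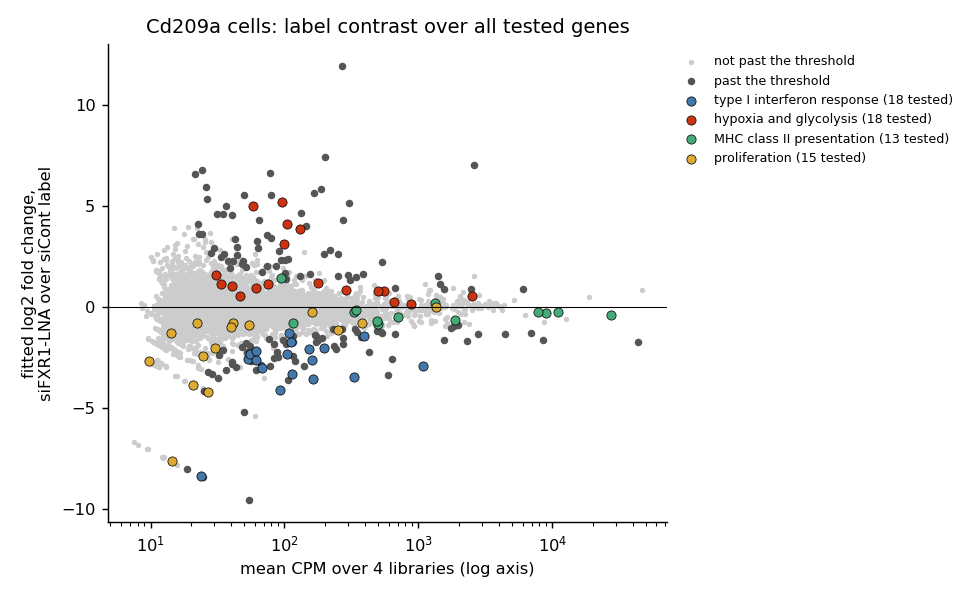
Each point is 1 of 7297 tested genes, with the mean CPM over the 4 libraries on a log axis and the fitted log2 fold change of the siFXR1-LNA over the siCont label, with dark points past the threshold and colored points for 4 gene lists. The 18 interferon genes all lie below 0, the 18 hypoxia and glycolysis genes all above 0, and the 13 MHC class II genes have a median of −0.31.

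Type I interferons act through a cell surface receptor to switch on antiviral genes, and dendritic cells both make them and respond to them. All 18 tested genes of the type I interferon list were lower in both siFXR1-LNA libraries than in both siCont libraries, and 14 passed the test, where the background was 1.18% of genes lower. The list was chosen with earlier results of these data known, so its count beside the background is a description. The median log2 difference was −2.61 on the list and −0.03 over all genes. Isg15, a ubiquitin-like protein, had 586 and 644 CPM under the siCont label and 9.90 and 81.3 CPM under the siFXR1-LNA label (log2 difference −3.50 ± 0.40, adjusted p = 0.00271). Irf7, the factor that amplifies interferon production, had 263, 345, 9.90 and 34.8 CPM (−3.58 ± 0.40, adjusted p = 0.00249). The groups did not overlap for either gene.

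Ifi27l2a, a small interferon-induced membrane protein, was the most abundant gene of the list in the members, with 1876, 1975, 168 and 344 CPM (−2.91 ± 0.27, adjusted p = 0.00126). Among the RNA-binding IFIT proteins, Ifit3 had 151, 201, 0 and 15.5 CPM (−4.10 ± 0.54, adjusted p = 0.00591). Its paralog Ifit3b kept 1 UMI under the siFXR1-LNA label, a ratio of 36.3 with a counting interval of 6.47 to 1439. Ifit1bl1 had 95.6 and 123.7 CPM under the siCont label and no UMI under the siFXR1-LNA label, which makes it at least 13.6-fold lower against 3 UMIs over the group. In the same way Tgtp1, an interferon-induced GTPase, was at least 6.27-fold lower and Ifi44 at least 5.76-fold lower. Ddx60, a helicase of viral RNA sensing, kept 1 UMI, a ratio of 17.8 (3.14 to 706). Ddx60 did not pass with DESeq2 (adjusted p = 0.172), and with at least 3 UMIs in the rule Ddx60 (adjusted p = 0.0786 by edgeR), Tgtp1 (0.116) and Ifi44 (0.0592) did not. Without members holding C1qc, Adgre1, Fcgr1 or Ly6c2, Ifit1bl1 (0.0772), Ifit3b (0.0815), Ddx60 (0.349) and Ifi44 (0.236) did not pass. After thinning to 1500 UMIs Ifit1bl1 (adjusted p = 0.106 by edgeR) and Ifit3b (0.133) did not pass. Among members with a UMI of Mgl2 or Clec10a Tgtp1 (0.0522) did not pass. The IFIT genes are near-identical neighbors, so their separate levels are uncertain.

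The fall was seen in single cells and not in a few of them alone. In cells thinned to 1500 UMIs, the median member carried 7 and 8 UMIs of the interferon list under the siCont label and 1 and 2 under the siFXR1-LNA label. No UMI of the list was found in 4.70% and 4.22% of members under the siCont label and in 45.5% and 23.7% under the siFXR1-LNA label. Isg15 was detected in 49.1%, 45.6%, 4.55% and 10.5% of members at that depth, and in 15.1%, 10.9%, 3.93% and 4.11% of B cells. Without thinning these shares were 72.5%, 76.5%, 4.55% and 34.2% of members and 23.8%, 20.3%, 6.21% and 5.36% of B cells. The level in siFXR1-LNA replicate 1 was thus near that of B cells.

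**Figure D4:**
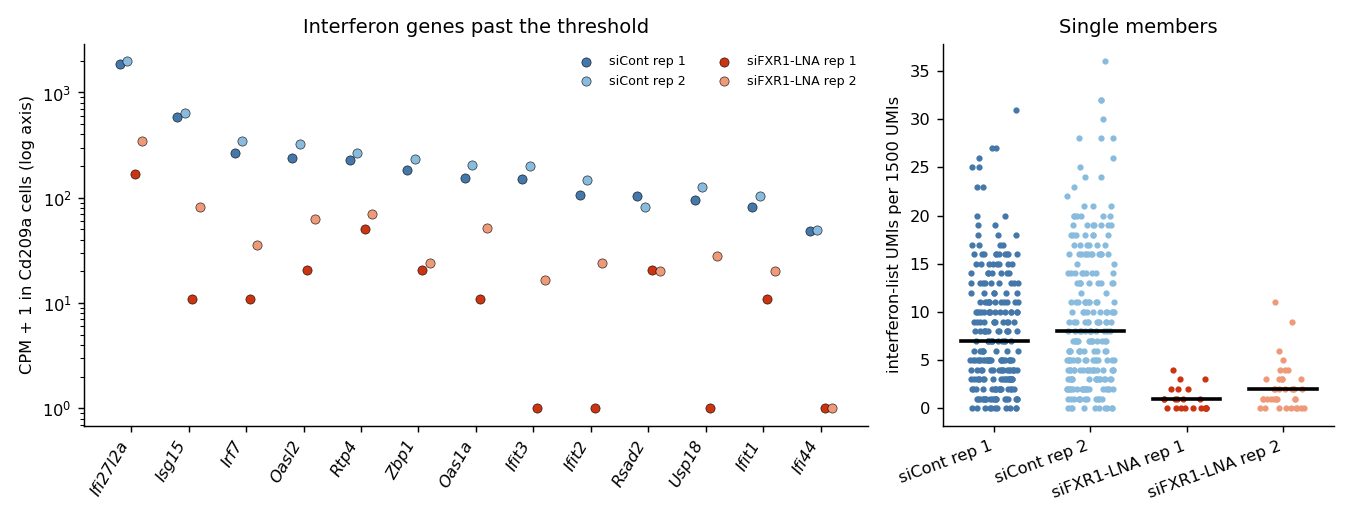
Left, CPM + 1 on a log axis of interferon genes past the threshold in the members of each library. Right, UMIs of the interferon list in each member thinned to 1500 UMIs, 1 point a member, with bars at the medians of 7, 8, 1 and 2.

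Other cells of the same libraries moved in the same direction. The median C1q macrophage had 5, 4, 1 and 1 UMIs of the list, the median B cell 2, 2, 0 and 1, the median cDC1 2, 2, 1 and 1, and the median mature cell 3, 2, 1 and 1. The members had the highest medians of these gates under the siCont label. Under the siFXR1-LNA label their medians of 1 and 2 lay beside the others. In all other kept barcodes Isg15 had 266, 332, 42.0 and 43.2 CPM.

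Several of these genes carry the core letters of the element that interferon-activated factors bind. The letters GAAA, any 2 bases and again GAAA were searched on both strands in RefSeq promoters of GRCm38.p6, each 300 bases long with 250 before and 50 after the gene start, and matches may overlap. They stood in 943 of 27025 promoters (3.49%), and in 218 of the 5871 promoters of tested genes (3.71%). Promoters were found for 66 of the 86 lower genes and 53 of the 75 higher genes, under 80% of each, so a comparison of the shares is void. Of the 66, 20 held the letters, and of the 53, 4 did. The 150 bases before the start follow for the 5 genes of the interferon list that passed the test and held the letters, 5′ to 3′ along the gene, with capitals marking each match or run of overlapping matches on either strand. A match is a description of these letters and not a site in use.
Isg15, chr4:156200819-156200968, minus strand: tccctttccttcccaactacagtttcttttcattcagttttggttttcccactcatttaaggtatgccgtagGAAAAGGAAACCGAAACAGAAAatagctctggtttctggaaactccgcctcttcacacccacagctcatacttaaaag
Oas1a, chr5:120907526-120907675, minus strand: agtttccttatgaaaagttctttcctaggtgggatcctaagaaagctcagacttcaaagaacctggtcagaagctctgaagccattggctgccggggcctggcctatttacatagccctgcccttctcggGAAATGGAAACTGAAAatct
Ifit3, chr19:34583379-34583528, plus strand: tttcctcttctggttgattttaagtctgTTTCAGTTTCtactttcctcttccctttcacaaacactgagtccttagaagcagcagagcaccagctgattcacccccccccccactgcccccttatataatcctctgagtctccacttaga
Ifit1, chr19:34640739-34640888, plus strand: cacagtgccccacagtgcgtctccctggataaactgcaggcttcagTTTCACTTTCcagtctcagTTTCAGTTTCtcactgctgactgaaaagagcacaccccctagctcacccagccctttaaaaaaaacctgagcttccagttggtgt
Rsad2, chr12:26456453-26456602, minus strand: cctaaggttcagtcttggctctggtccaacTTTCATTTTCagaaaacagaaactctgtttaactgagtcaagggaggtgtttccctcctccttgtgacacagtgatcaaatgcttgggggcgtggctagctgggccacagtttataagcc
In the Isg15 window 3 overlapping matches formed 1 run whose nearest end lay 56 bases before the start. Ifit1 held 2 separate matches and Ifit3 and Rsad2 1 each, while in Oas1a 2 overlapping matches ended 4 bases before the start.

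The interferon-gamma list holds genes that the type II interferon of T and NK cells induces. Of 10 tested, 2 passed the test, both lower, and the median log2 difference was −2.47. In all, 9 of the 10 lay lower in both siFXR1-LNA libraries than in both siCont libraries. Gbp2, a guanylate-binding GTPase, had 92.0, 105, 9.90 and 19.4 CPM (−2.67 ± 0.43, adjusted p = 0.0151). Irgm1, a GTPase of cell-autonomous defense, had 126, 166, 19.8 and 38.7 CPM (adjusted p = 0.0215). The chemokines Cxcl9 and Cxcl10 were too sparse to test, with 8 and 18 UMIs under the siCont label.

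MHC class I genes, which interferons also raise, lay lower throughout, and few passed. All 15 tested genes were lower in both siFXR1-LNA libraries than in both siCont libraries, 2 passed the test, and the median was −0.94. H2-Q7, a nonclassical class I chain from a family of near-identical copies, had 127, 150, 9.90 and 23.2 CPM (−2.95 ± 0.41, adjusted p = 0.00857). Psmb9, a subunit of the immunoproteasome that cuts peptides for class I, had 337, 384, 158 and 194 CPM (−1.10 ± 0.23, adjusted p = 0.0472). The classical chain H2-K1 had 1493, 1605, 753 and 1142 CPM and beta-2-microglobulin (B2m) 1991, 2071, 1079 and 1424 CPM, with adjusted p of 0.111 and 0.0685.

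MHC class II genes, the machinery that presents antigen to CD4 T cells, gave a different count. Of 13 tested, 0 were lower and 1 was higher by edgeR, 6 had an unadjusted p under 0.05, and the median was −0.31. The log2 difference was negative for 11 of them. In both siFXR1-LNA libraries 6 lay below both siCont libraries and 2 lay above both. H2-Aa had 11075, 12271, 9238 and 11589 CPM (−0.27 ± 0.17, adjusted p = 0.523). The invariant chain Cd74 had 28510, 32325, 20586 and 29158 CPM (−0.40 ± 0.19, adjusted p = 0.381), and the groups overlapped for both genes. Ciita also overlapped (adjusted p = 0.712). The gene that rose was Lgmn, a lysosomal protease, with 51.3, 46.2, 139 and 143 CPM (1.44 ± 0.27, adjusted p = 0.029), beside 131 and 150 CPM in B cells and 335 and 493 CPM in the other kept barcodes under the siFXR1-LNA label.

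Of the identity genes outside the rule, Mgl2 was the single one of 16 that passed. It was lower under the siFXR1-LNA label (−1.34 ± 0.22, adjusted p = 0.0155), and its paralog Clec10a was not called (−0.15 ± 0.32, adjusted p = 0.903). In members above the limit of the rule Mgl2 had 1072, 1003, 433 and 504 CPM, and in members at the limit 467, 352, 209 and 281 CPM. The order of the groups was therefore the same on both sides, without a test. Cst3, the protease inhibitor cystatin C and a classical dendritic cell gene, had 9785, 9482, 3456 and 4899 CPM (−1.30 ± 0.19, adjusted p = 0.00976). In cDC1 it had 27141, 28261, 22726 and 28175 CPM, and the groups overlapped. It was lower under the siFXR1-LNA label, without a test, in the mature gate (14829, 14942, 8290 and 6337 CPM), B cells (1029, 819.5, 599.9 and 468.5 CPM) and all other kept barcodes (3209, 3248, 1037 and 1429 CPM). Zbtb46, Itgax, Sirpa and the other identity genes did not pass, with Sirpa, the receptor for CD47, at 120, 154, 228 and 252 CPM (adjusted p = 0.236).

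None of the 19 transcription factors tested passed the test by edgeR, and 7 had an unadjusted p under 0.05. The costimulation list had 0 calls among 10 tested, with 2 at an unadjusted p under 0.05. Cd86, which costimulates T cells, had 50.4, 50.3, 69.3 and 58.0 CPM (0.18 ± 0.32, adjusted p = 0.877). Cd40, the receptor for T cell help, had 34.5, 38.0, 9.90 and 31.0 CPM (adjusted p = 0.597). The cytokine list had 0 calls among 5 tested and 1 at an unadjusted p under 0.05, which was Il1b with 73.5, 79.1, 129 and 259 CPM (adjusted p = 0.0648). Il12b, a subunit of the cytokine that drives type 1 helper T cells, had a single UMI among all members, and Il10 had none.

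Plac8 and the cell division genes made up further falls. Plac8, a cysteine-rich protein of monocytes and plasmacytoid cells, had 909, 1224, 218 and 178 CPM (−2.58 ± 0.25, adjusted p = 0.00129) beside 794, 896, 335 and 309 CPM in B cells. Of 15 proliferation genes 4 were lower and 0 higher, with a median of −1.15. Top2a, the topoisomerase of dividing cells, had 56.6 and 46.7 CPM, then 0 and 3.87 CPM, a ratio of 18.1 (3.20 to 720) on 1 UMI. Mcm5, part of the replication helicase, also kept 1 UMI, with a ratio of 14.3 (2.51 to 567), and the histone gene Hist1h2ae 1 UMI with 17.8 (3.14 to 706). Birc5 had no UMI under the siFXR1-LNA label and was at least 3.42-fold lower, and the tubulin gene Tubb5 had 342, 329, 168 and 159 CPM (−1.15 ± 0.23, adjusted p = 0.0356). With DESeq2 the falls of Top2a (adjusted p = 0.144), Mcm5 (0.279) and Hist1h2ae (0.168) did not pass, nor did they with at least 3 UMIs in the rule (adjusted p = 0.0986, 0.124 and 0.0945 by edgeR) or without members holding C1qc, Adgre1, Fcgr1 or Ly6c2 (0.156, 0.234 and 0.176). Without siFXR1-LNA replicate 2 the values were 0.109, 0.126 and 0.104, and without siCont replicate 1 they were 0.583, 0.655 and 0.519. Top2a was also lower in cDC1 (73.2, 84.4, 5.51 and 0 CPM) and C1q macrophages (71.6, 58.6, 10.8 and 10.1 CPM), without a test. Mki67, the usual marker of cycling, had 26.6, 27.2, 19.8 and 15.5 CPM and did not pass (adjusted p = 0.553).

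Itgae (CD103), an integrin that binds epithelial cadherin, was lower in the members, at 73.5, 96.5, 19.8 and 19.4 CPM (−2.24 ± 0.43, adjusted p = 0.0342). S100a10, a calcium-binding protein partner of annexin, had 736, 749, 307 and 340 CPM (−1.29 ± 0.20, adjusted p = 0.0118). These were the 2 calls among 18 migration and adhesion genes, whose median was −0.44. Of 5 mast cell and basophil genes tested 1 was lower and 0 were higher. Cma1, a mast cell protease and the gene called, had 285, 102, 19.8 and 15.5 CPM in the members (−3.60 ± 0.75, adjusted p = 0.0434) and 460, 233, 11.4 and 37.5 CPM in B cells. Its call was lost with at least 3 UMIs in the rule (adjusted p = 0.13 by edgeR), among members with a UMI of Mgl2 or Clec10a (0.0651), after thinning (0.251), without members holding C1qc, Adgre1, Fcgr1 or Ly6c2 (0.174) and with any one library left out (0.129 to 0.677). The hemoglobin gene Hbb-bs had 72749, 59400, 29319 and 13253 CPM in the members and 120668, 117066, 57813 and 24130 CPM in B cells, and 5 of the 7 tested erythroid genes were lower.

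Saa3, an acute-phase apolipoprotein, was among the largest rises. It had 47.8, 28.8, 3555 and 6694 CPM in the members (7.01 ± 0.39, adjusted p = 9.26e-05). Every member of both siFXR1-LNA libraries had a UMI of it, and the member with the most held 26.5% and 43.4% of the UMIs. In B cells of the same libraries Saa3 had 84.1, 65.1, 6596 and 7528 CPM, and in all other kept barcodes 562, 685, 26708 and 33141 CPM. The level in the members was thus below both. At 1500 UMIs, Saa3 was detected in 6.84%, 5.49%, 90.9% and 100% of members and in 12.9%, 11.1%, 98.9% and 98.6% of B cells, where B cells do not make it. Whether the members transcribed Saa3 themselves was not tested.

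The list fixed under the name alternative activation, which also holds genes of acute inflammation, held 6 rises and 0 falls among 11 tested, with a median of 3.41, where 1.03% of all genes were higher. This list too was chosen with earlier results of these data known, so the count is a description. Saa3, Chil3, Lcn2, Hp and Slpi were among them, and 4 of these, Saa3, Lcn2, Hp and Slpi, code for secreted proteins of acute inflammation. Chil3, a chitinase-like protein, had 0, 2.05, 158 and 151 CPM (6.64 ± 0.55, adjusted p = 0.000778), beside 1.79, 7.39, 238 and 291 CPM in B cells. Lcn2, an iron-binding lipocalin, had 4.42, 6.16, 505 and 232 CPM (5.82 ± 0.46, adjusted p = 0.000736), beside 3.58, 20.7, 927 and 1418 CPM in B cells.

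Of the chemokines for neutrophils, Cxcl3 rested on few members. It had no UMI under the siCont label and 274 under the siFXR1-LNA label, at least 782-fold higher against 3 UMIs over the group. In siFXR1-LNA replicate 2 its 270 UMIs came from 2 of 38 members, 76.7% of them from 1, and in replicate 1 there were 4 UMIs in 3 members. Cxcl2 had 0, 3.59, 139 and 666 CPM (7.44 ± 0.80, adjusted p = 0.00207), in 5 of 22 and 12 of 38 members under the siFXR1-LNA label, with 66.9% of the UMIs of replicate 2 in 1 member. Without siFXR1-LNA replicate 2 the fitted log2 fold of Cxcl2 was 5.74. The lone siFXR1-LNA library left in that fit gives no spread of its group, so the fold alone does not show that the rise holds. B cells had 1.02, 5.23, 332 and 456.5 CPM of Cxcl2 and 0, 0, 55.8 and 76.6 CPM of Cxcl3, in siFXR1-LNA replicate 1 above the members for both genes. Cxcl2 and Cxcl3 were the 2 calls among 7 chemokines tested. With the UMIs of the highest member of each gene and library left out, a setting chosen after the data were seen, 51 rises were called over the genome, 43 of them among the 75, and 11 of the 75 were too sparse to test.

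Hypoxia and glycolysis genes lay higher throughout, and a part of them passed the test. All 18 tested were higher in both siFXR1-LNA libraries than in both siCont libraries, 6 passed the test, and the median was 1.07. Vegfa, the vascular growth factor, had 5.31, 3.08, 297 and 77.4 CPM (5.17 ± 0.68, adjusted p = 0.00576). Ero1l, which oxidizes disulfides in the endoplasmic reticulum, had 15.9, 14.4, 307 and 190 CPM (3.85 ± 0.33, adjusted p = 0.000778). Bnip3, a mitophagy receptor, had 16.8, 19.5, 208 and 151 CPM (3.11 ± 0.31, adjusted p = 0.00129), and Egln3, an oxygen-sensing hydroxylase, 2.65, 3.08, 148 and 77.4 CPM (4.97 ± 0.53, adjusted p = 0.002). The remaining 2 were Ndrg1 (adjusted p = 0.0324) and the glycolytic enzyme Pgk1 (adjusted p = 0.0411).

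B cells and macrophages also carried more of this list under the siFXR1-LNA label. The median member had 7 and 6 UMIs of it at a depth of 1500 UMIs under the siCont label and 11.5 and 10 under the siFXR1-LNA label. The median B cell had 5, 4, 13 and 11, and the median C1q macrophage 8, 10, 19 and 19. In B cells Vegfa had 12.5, 4.69, 299 and 155 CPM, beside 16.8, 14.1, 389 and 216 CPM in all other kept barcodes. The part that RNA from other cells had in the rise within members was not tested.

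Iron and oxidative stress genes had 6 rises and 0 falls among 12 tested, with a median of 1.20. Mt1, a metal-binding metallothionein, had 187, 170, 753 and 1014 CPM (2.22 ± 0.21, adjusted p = 0.00129), beside 111, 28.3, 781 and 694 CPM in B cells. Hmox1, which breaks down heme, had 25.7, 9.75, 188 and 356 CPM (4.02 ± 0.45, adjusted p = 0.00249), beside 38.6, 14.4, 235 and 251 CPM in B cells. The ferritin heavy chain Fth1 had 4413, 3793, 7169 and 8908 CPM (0.87 ± 0.17, adjusted p = 0.0357). Slc7a11, the cystine transporter, rested on 1 UMI under the siCont label and 19 under the siFXR1-LNA label, a ratio of 163 (25.9 to 6760). The others were Mt2 and the transferrin receptor Tfrc.

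Some rises came with feedback genes of inflammation. Nfkbia, the inhibitor of NF-kB, had 65.5, 79.1, 228 and 244 CPM (1.60 ± 0.25, adjusted p = 0.0132), and Ier3 60.2, 45.7, 356 and 329 CPM (2.59 ± 0.25, adjusted p = 0.00129). With Sod2 they were the 3 calls among 13 genes of that list, all higher, at a median of 0.14. Clec4e (Mincle), a lectin for mycobacterial glycolipids, had 0, 3.08, 79.2 and 116 CPM (5.54 ± 0.66, adjusted p = 0.00316), beside 1.28, 3.24, 69.8 and 97.6 CPM in B cells. Clec4a1, an activating lectin receptor, had 15.9, 23.1, 79.2 and 89.0 CPM (1.98 ± 0.37, adjusted p = 0.0285), beside 3.58, 2.34, 27.9 and 27.0 CPM in B cells. With Mgl2 these were the 3 calls among 12 C-type lectins. Cd14 was the call among 14 pattern recognition receptors (10.6, 14.9, 49.5 and 101 CPM, adjusted p = 0.0196), beside 5.62, 5.59, 97.65 and 156 CPM in B cells.

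Some rising genes stood above the level of B cells, and few above that of all other kept barcodes. Of the 75, 65 were at or below the level of all other kept barcodes in both siFXR1-LNA libraries, and 4 were above it in both. Against B cells 28 were at or below in both, 25 were above in both, and 8 were more than 2-fold above in both, among them Clec4a1, Cox6a2, F13a1, Fnip2, Gda, Siglech and Tgfbi. F13a1, a coagulation factor subunit of monocytes, had 7.96, 5.13, 218 and 433 CPM (5.65 ± 0.41, adjusted p = 0.00058), beside 15.6, 9.73, 86.2 and 94.6 CPM in B cells and 723, 832, 1136 and 1407 CPM in C1q macrophages. All other kept barcodes had 335, 372, 574.5 and 952 CPM of it, above the members in every library. Tgfbi, a secreted matrix protein, had 42.5, 55.4, 149 and 151 CPM (1.49 ± 0.28, adjusted p = 0.0316).

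Siglech and Cox6a2, genes of plasmacytoid dendritic cells, rested on very few members. Siglech had 15.1, 12.8, 29.7 and 92.9 CPM (2.26 ± 0.48, adjusted p = 0.0472), and its UMIs under the siFXR1-LNA label came from 1 of 22 and 2 of 38 members. Cox6a2 came from 3 members in each of these libraries (adjusted p = 0.0369). Pf4, a platelet chemokine also found in macrophages, had 28.3, 26.2, 119 and 917 CPM (4.29 ± 0.64, adjusted p = 0.0109), with 57.8% of the UMIs of siFXR1-LNA replicate 2 in 1 member. Cacna1d, a calcium channel subunit, rose from 2 UMIs under the siCont label to 20 under the siFXR1-LNA label, a ratio of 85.6 (20.8 to 756).

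Of the 86 falling genes, 66 were above all other kept barcodes in both siCont libraries, 70 were above B cells and 71 above C1q macrophages. In both siFXR1-LNA libraries 35 of them were above all other kept barcodes and 31 were at or below. Genes called lower are high in the siCont libraries by their selection, as are genes called higher in the siFXR1-LNA libraries, so these counts are descriptions.

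**Figure D5:**
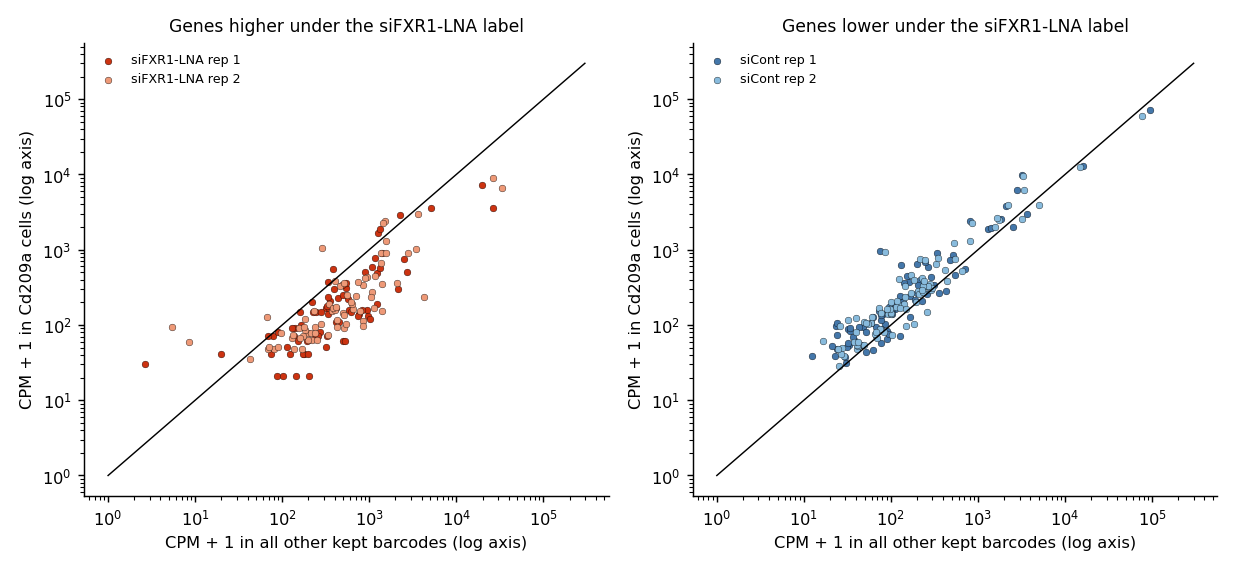
CPM + 1 of each called gene in the members against all other kept barcodes of the same library, both on log axes with a line of equality, for the 75 higher genes in the siFXR1-LNA libraries (left) and the 86 lower genes in the siCont libraries (right). Of the higher genes 65 lie at or below the line in both libraries, and of the lower genes 66 lie above it in both.

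Several lists held no call. Heat shock genes (0 calls among 12 tested by edgeR, 4 at an unadjusted p under 0.05) and immediate early genes (0 among 12, 3 at an unadjusted p under 0.05), which mark stress of cell preparation, did not pass. Chemokine receptors had 0 calls among 5 tested and 0 at an unadjusted p under 0.05. Ccr2, the receptor that brings myeloid cells from blood, had 168, 242, 277 and 259 CPM (0.26 ± 0.26, adjusted p = 0.733). Of 11 tested genes in a list drawn from those that the study named for dendritic cells, 2 were higher (Siglech among them), Cst3 was lower and 8 did not pass. That list was chosen on these samples and is no independent evidence. It leaves out Itgae, which the study also named and which was called lower here.

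Whether the label difference was particular to the members was tested as an interaction with each neighboring gate, with the library as a term. Against cDC1, 2 of 7380 genes had a more positive difference in the members (0.0271%) and 15 a more negative one (0.203%). Against the mature gate the counts were 20 (0.278%) and 17 (0.236%) of 7197 genes, and against C1q macrophages 136 (1.03%) and 145 (1.1%) of 13166 genes. In simulated counts these tests recovered 23%, 39% and 16% of 4-fold changes against cDC1, the mature gate and C1q macrophages, so that a gene without a call is not shown to change alike. Without siCont replicate 2, and likewise without siFXR1-LNA replicate 1, 0 genes were called against the mature gate by edgeR.

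Ifitm1, an interferon-induced membrane protein, was among the more negative values. It had 620, 713, 2099 and 1072 CPM in the members and 7.98, 32.8, 607 and 109 CPM in cDC1, an interaction of −2.78 ± 0.43 (adjusted p = 0.00553). The gene was thus higher under the siFXR1-LNA label in both gates and from a far lower level in cDC1. Ccl17, a chemokine for CCR4-bearing T cells, had 42.5, 25.7, 39.6 and 27.1 CPM in the members and 5.32, 0.938, 55.1 and 147 CPM in cDC1 (−5.48 ± 0.74, adjusted p = 0.00168). Plet1, a surface protein of gut and lung dendritic cells, had 67.3, 52.9, 0 and 19.4 CPM in the members and 3.99, 2.81, 149 and 70.7 CPM in cDC1 (−7.0 ± 0.76, adjusted p = 0.000102).

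Against the mature gate, the integrin Itgam (CD11b) had 238, 347, 327 and 383 CPM in the members and 15.7, 15.3, 147 and 91.5 CPM in the mature cells (−2.59 ± 0.45, adjusted p = 0.0229). Clec4n (Dectin-2), a receptor for fungal mannans, had 94.7, 127, 139 and 120 CPM in the members and 4.71, 7.06, 71.8 and 75.4 CPM in the mature cells (−3.40 ± 0.49, adjusted p = 0.0087). The labels overlapped in the members for both genes, and both siFXR1-LNA libraries lay above both siCont libraries in the mature gate. Against C1q macrophages, Ccl5, a chemokine for T cells, had 96.5, 70.9, 49.5 and 163 CPM in the members and 40.6, 34.0, 502 and 430 CPM in the macrophages (−3.38 ± 0.31, adjusted p = 2.42e-24). F13a1 and Chil3 were the opposite, with a larger rise in the members, from a level near 0, than in macrophages (4.68 ± 0.42 and 4.65 ± 0.62).

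Members with and without a Flt3 UMI were also set side by side, without a test. The split used all UMIs of a member, so it can follow depth, and levels were read after thinning to 1500 UMIs. Among members deep enough to thin, the Flt3 members numbered 69, 107, 11 and 18 and those without 165, 130, 11 and 20. After thinning a Flt3 UMI was left in 34, 29, 5 and 5 members. The log2 ratio of H2-Aa between them was 0.06, 0.15, 0.54 and 0.19 in the 4 libraries, and that of Ciita −0.66, −0.12, −0.44 and −0.76. Ifitm1 and Bst2, an interferon-induced tetherin, were picked from many genes after their values were seen. Ifitm1 was higher in Flt3 members in every library (log2 ratios 0.37, 0.75, 1.72 and 0.94), and Bst2 was lower in every library (−0.77, −0.49, −1.07 and −0.30). Other genes also kept their sign in all 4 libraries, among them S100a4 and Jun (higher) and Oasl2 (lower), and many changed sign. Whether a random split of members would give as many was not tested. Flt3 was part of the rule and few UMIs of it were counted per cell, so these ratios are descriptions.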

How the data were processed

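Ascites cells of 4 samples, each pooled from 3 mice, were measured by droplet single-cell RNA sequencing (10x 3′ tags). The values deposited by the authors are raw UMI counts per gene (32285 genes) and barcode, made with Cell Ranger 7.0.0 on mm10 per the labels. The sources used here differ among themselves on the kit and the Cell Ranger version. The deposited counts held 133849 barcodes, more than the cells kept here.

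Members were gated on UMIs as given above, since no annotation of cells was used, and their counts were summed per library. The members, comparison gates and gene lists were chosen with earlier results of these data known. Doublets were not removed, and an alternative left out the top 5% of Scrublet scores in each library (scanpy 1.11.5). Labels were compared with edgeR 4.0.16 in R 4.3.3 (TMM factors, low-count filter, quasi-likelihood test, Benjamini-Hochberg adjustment, threshold 0.05), without the 12 genes of the rule. Interactions with other gates used the same test. DESeq2 1.42.0 was an alternative. Shares were compared by exact permutation over libraries (scipy 1.17.1).

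The genes named were the 10 largest rises and falls with a mean of at least 20 CPM and groups that did not overlap, members of 22 function and 16 marker lists, the 20 genes with the highest ratio of members to other barcodes (pseudocount 5 CPM, at least 50 CPM in every library), and up to 5 interactions a direction. Genes with no UMI in a group were bounded at 3 UMIs over the group. In counts simulated from these libraries with 7094 genes, the label test recovered 9% of 2-fold and 79% of 4-fold changes. The interaction test recovered 1% and 23% against cDC1 (7089 genes), 2% and 39% against the mature gate (6791 genes), and 0% and 16% against C1q macrophages (12876 genes). Some genes that met these rules are not reported here.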

Additional observations from a re-analysis of the deposited data

Results flagged for a closer look

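The genes given here had a label difference (siFXR1-LNA over siCont, log2) that differed between the members and another gate by edgeR's interaction test. Values are the interaction, positive where the members had the more positive difference.

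Against cDC1, more positive values were found for the potassium channel gene Kcnd2 (6.27, adjusted p = 0.007) and the catenin gene Ctnna2 (4.83, adjusted p = 0.0157). Kcnd2 had 51.3 and 3.08 CPM in the members under the siCont label against 224 and 2.81 CPM in cDC1, so siCont replicate 1 stood apart in both gates. Ctnna2 likewise had 31.0 and 1.54 CPM in the members and 228 and 4.69 CPM in cDC1. More negative values were found for Plet1 (−7.0), the chemokine-binding receptor Ccrl2 (−6.00), Ccl17 (−5.48), Eva1b (−3.72) and Ifitm1 (−2.78). Ccrl2 had 31.9, 33.9, 39.6 and 34.8 CPM in the members and 1.33, 0, 11.03 and 70.7 CPM in cDC1.

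Against the mature gate, more positive values were found for Slc7a11 (5.34), the chemokine Ccl2 (4.70), Cpne8 (4.64) and Zdhhc14 (4.28). Ccl2 had no UMI in the members of siFXR1-LNA replicate 1. In siFXR1-LNA replicate 2 it came from 4 of 38 members, with 73.1% of the UMIs in 1 member. Zdhhc14, a palmitoyltransferase, had 22.1, 29.8, 69.3 and 65.8 CPM in the members and 84.8, 100, 6.52 and 16.1 CPM in the mature cells, so the labels were in opposite order in the 2 gates. More negative values were found for Plet1 (−9.03), Ms4a6d (−3.46), Clec4n (−3.40), Ifitm6 (−2.64) and Itgam (−2.59). Plet1 had no UMI in the mature cells under the siCont label, so its value is no bound.

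Against C1q macrophages, more positive values were found for Ptprm (10.83), Psd3 (5.24), F13a1 (4.68), Chil3 (4.65) and the complement receptor C5ar1 (4.57). Ptprm, a receptor phosphatase, had no UMI in the members of 3 libraries and 31.0 CPM in siFXR1-LNA replicate 2, so its value is no bound. C5ar1 in the members came from siCont replicate 2 (3.08 CPM) and siFXR1-LNA replicate 2 (69.7 CPM), with no UMI in the other two libraries. More negative values were found for Ly6i (−4.98), Rasa4 (−3.41), Ccl5 (−3.38), Glipr2 (−3.29) and the peptidoglycan-binding Pglyrp1 (−3.19). Rasa4, a regulator of Ras, had 67.3, 80.6, 0 and 15.5 CPM in the members and 50.5, 50.1, 56.8 and 64.6 CPM in the macrophages.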

How the results depend on the processing

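Of 257 results for 20 named genes under the alternatives, 182 stayed on their side of the threshold, 75 lost it and 0 reversed. Genes too sparse to test or without an adjusted p in a setting are not among the 257. Nor are the falls with the highest member left out. After thinning 6 genes stayed and 3 lost the threshold, and without members holding C1qc, Adgre1, Fcgr1 or Ly6c2 the counts were 6 and 8. The 75 higher and 86 lower genes became 60 and 57 with DESeq2, 184 and 252 with no filter on low counts, 41 and 25 with at least 3 UMIs in the rule, 17 and 12 in cells thinned to 1500 UMIs (3391 genes tested) and 36 and 40 without members holding C1qc, Adgre1, Fcgr1 or Ly6c2. With one library left out they ranged from 0 to 88 and from 0 to 79. A replicate block gave 269 and 254, with all 75 and 86 among them. The 2 pairs of replicate numbers share only a number (correlation of deviations 0.208 over 7297 genes). The share difference ranged from 7.55-fold to 17.9-fold with one library left out. The 17 interactions with cDC1 became 72 with no filter and 5 after thinning, and ranged from 10 to 140 with one library left out. The 37 with the mature gate became 76 with no filter, 8 at 3 UMIs and 0 after thinning (218 at an unadjusted p under 0.05), and ranged from 0 to 49. The 281 with C1q macrophages became 154 at 3 UMIs and 47 after thinning, and ranged from 75 to 252. The causes were not tested. Settings on the lectins, hemoglobin share, exclusions and highest member were chosen after seeing the data. The 22 and 38 members under the siFXR1-LNA label limit precision.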
